A study of Mus musculus with 2 samples.

Results

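In the islets of NOD mice, which develop autoimmune diabetes, 798 of 22466 kept leukocytes were CD8 T cells with UMIs of Xcl1 or Cd160 and without UMIs of Entpd1 or Havcr2. They were chosen by their raw UMI counts, where a UMI is a tag that marks 1 captured RNA molecule. A member had at least 500 detected genes and at most 10% mitochondrial UMIs, at least 2 UMIs of Cd8a and Cd8b1 together, none of Cd4, at least 1 of Cd3d, Cd3e and Cd3g together, at most 1 of the lineage genes Cd79a, C1qa and Lyz2, at most 1 of the cell-cycle genes Mki67 and Top2a, none of Entpd1 and Havcr2, and at least 2 of Xcl1 and Cd160 together. The WT NOD library held 427 of them and the library labelled NOD.Cxcl16-/- held 371. Pairs of values below are in that order.

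The study compared islet leukocytes of WT NOD females with those of NOD females labelled as lacking Cxcl16, a chemokine gene, with 1 library for each of the 2 groups. All mice were 12 weeks old, and no other allele or treatment is given in the labels. Islets were picked by hand after collagenase digestion and taken apart without enzymes, and live CD45+ CD31- cells (leukocytes, without endothelium) were sorted for the 10x Genomics 3' v3.1 assay. The number of animals behind each library and the part of Cxcl16 that was deleted are not given in the labels.

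XCL1, or lymphotactin, is a chemokine secreted by activated CD8 T cells and natural killer (NK) cells, and its receptor XCR1 is carried by type 1 conventional dendritic cells, which present antigen to CD8 T cells. CD160 is a cell-surface receptor of the immunoglobulin superfamily that binds HVEM and MHC class I molecules and is found on NK cells and on activated or memory CD8 T cells. In chronic infection and tumours, CD8 T cells with Xcl1, Tcf7 and Slamf6 transcripts are known as a self-renewing pool, whereas ENTPD1 (CD39) and HAVCR2 (TIM-3) mark differentiated cells of the same lineage.

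The deposited matrices held 13859 and 10554 barcodes with 93553185 and 98681133 UMIs, of which 12252 and 10214 barcodes were kept, at medians of 4269 and 5189 UMIs. Members had medians of 5975 and 6108 UMIs and of 2092 and 2190 genes. Cxcl16, the targeted gene, was measured at 104 and 102 CPM (a gene's UMIs scaled to the same total in every group of cells) over all kept cells, so its transcript was not lower in the library labelled NOD.Cxcl16-/-. A 3' tag outside the deleted part would not check the label. The libraries shared 45 barcodes, 3 of them members in the WT NOD library and none in the other. With 1 library per group, no difference below has a replicate check, and no p-value is given. All intervals are at the 95% level and cover counting error only, and reads of 1 cell or 1 mouse are not independent samples of a genotype.

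The 2 genes that chose the cells are shown through the bases before their annotated starts, because 165 and 192 members held UMIs of both. On GRCm38, Xcl1 (ENSMUSG00000026573) lies at chr1:164931644-164935527 on the minus strand with 3 exons, and Cd160 (ENSMUSG00000038304) lies at chr3:96798763-96829351 on the minus strand, its longest transcript with 5 exons. RefSeq (GRCm38.p6) lists 1 start for Xcl1 and 2 for Cd160, the second of them inside the gene. The 250 bases before each start follow, 5′ to 3′ on the gene's strand, for chr1:164935523-164935772, chr3:96829352-96829601 and chr3:96814522-96814771. Capitals mark matches, on either strand, to GGTGTGA, the T-box half-site bound by factors such as EOMES, and to TGTGGTT, a RUNX site.
Xcl1: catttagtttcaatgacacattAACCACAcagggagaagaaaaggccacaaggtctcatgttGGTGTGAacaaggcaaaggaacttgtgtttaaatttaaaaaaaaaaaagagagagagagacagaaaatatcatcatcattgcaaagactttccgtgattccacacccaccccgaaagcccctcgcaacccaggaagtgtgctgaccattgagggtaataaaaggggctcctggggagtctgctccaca
Cd160, first start: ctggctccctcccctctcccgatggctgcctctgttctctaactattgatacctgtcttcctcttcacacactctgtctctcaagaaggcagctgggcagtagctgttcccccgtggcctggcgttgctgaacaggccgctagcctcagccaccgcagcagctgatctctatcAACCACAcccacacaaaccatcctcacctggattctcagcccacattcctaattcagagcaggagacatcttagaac
Cd160, second start: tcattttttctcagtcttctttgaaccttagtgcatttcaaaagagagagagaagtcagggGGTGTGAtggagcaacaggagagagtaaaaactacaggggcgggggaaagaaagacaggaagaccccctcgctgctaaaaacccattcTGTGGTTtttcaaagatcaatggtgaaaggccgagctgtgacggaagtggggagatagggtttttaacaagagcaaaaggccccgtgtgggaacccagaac
In the Xcl1 sequence the T-box letters begin 188 bases and the RUNX letters 228 bases before the start. The second start of Cd160 has the T-box letters at 189 bases and the RUNX letters at 101 bases, and its first start has only the RUNX letters, at 77 bases. Over all 32851 promoter windows of 300 bases (250 before and 50 after a start), 3.98% held GGTGTGA and 5.27% held TGTGGTT on either strand. Of 5 motifs searched, AP-1 (TGANTCA, in 7.81% of windows), NR4A (AAAGGTCA, in 1.51%) and TCF (CTTTGAT, in 3.73%) had no match in these 3 windows. These matches are letters in a reference sequence, and binding was not measured.

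The label of these cells names Xcl1, Cd160, Crtam, Eomes, Tox2 and Ctla2a as markers, of which the first 2 are the rule itself. UMIs were summed over the cells of each gate and scaled to CPM, and log2 ratios were taken with 10 CPM added to both sides. Members were compared with the other CD8 T cells, which met every condition but held at most 1 UMI of Xcl1 and Cd160 together (947 and 580 cells). Since the same contrast chose the members, this comparison is a description. Xcl1 stood at 1456 and 1983 CPM in members against 27.1 and 24.4 CPM in other CD8 T cells. Cd160 stood at 149 and 201 CPM against 10.7 and 10.5. Both gaps follow from the rule.

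Of the 4 markers that the rule did not name, Crtam, Eomes and Tox2 were higher by at least 1.5-fold in members of both libraries, and Ctla2a was not. Crtam, an adhesion receptor of activated T and NK cells, stood at 91.3 and 107 CPM in members and 37.1 and 34.3 CPM in other CD8 T cells (log2 ratios 1.10 and 1.40). Eomes, a T-box transcription factor of memory and killer lymphocytes, stood at 110 and 101 CPM against 65.4 and 58.4 (0.68 and 0.70). Tox2, a nuclear factor of the TOX family, stood at 96.2 and 116 CPM against 43.3 and 35.9 (1.0 and 1.46). For Ctla2a, which encodes a protein similar to cathepsin propeptides, the levels were 1074 and 733 CPM against 771 and 562 (0.47 and 0.38).

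Crtam was the marker that set the members apart from every other gate measured. It stood at 35.5 and 33.5 CPM in Ccl5-high CD8 T cells (at least 10 UMIs of Ccl5 and at most 1 of the naive-cell genes of the gate, Ccr7 and Lef1 among them), at 19.4 and 24.2 CPM in CD8 T cells with Entpd1 or Havcr2 UMIs, and at 12.2 and 22.3 CPM in the NK gate. Its intervals in members, 80.8 to 103 and 94.9 to 119 CPM, did not reach any of these levels. Eomes did not separate members from Ccl5-high cells (105 and 99.6 CPM) or from Entpd1 or Havcr2 cells (105 and 84.0 CPM), and was highest in the NK gate (171 and 156 CPM). Tox2 stood at 97.8 and 81.0 CPM in Entpd1 or Havcr2 cells, whose interval in the library labelled NOD.Cxcl16-/- (69.1 to 94.4 CPM) lay below that of members (104 to 130 CPM), and was low in the NK gate (3.06 and 5.57 CPM). After each cell was thinned to 2000 UMIs, 16.4% and 20.7% of members held a Crtam UMI, against 5.54% and 6.63% of other CD8 T cells and 0.590% and 0.984% of B cells, which should lack the gene.

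**Figure D1:**
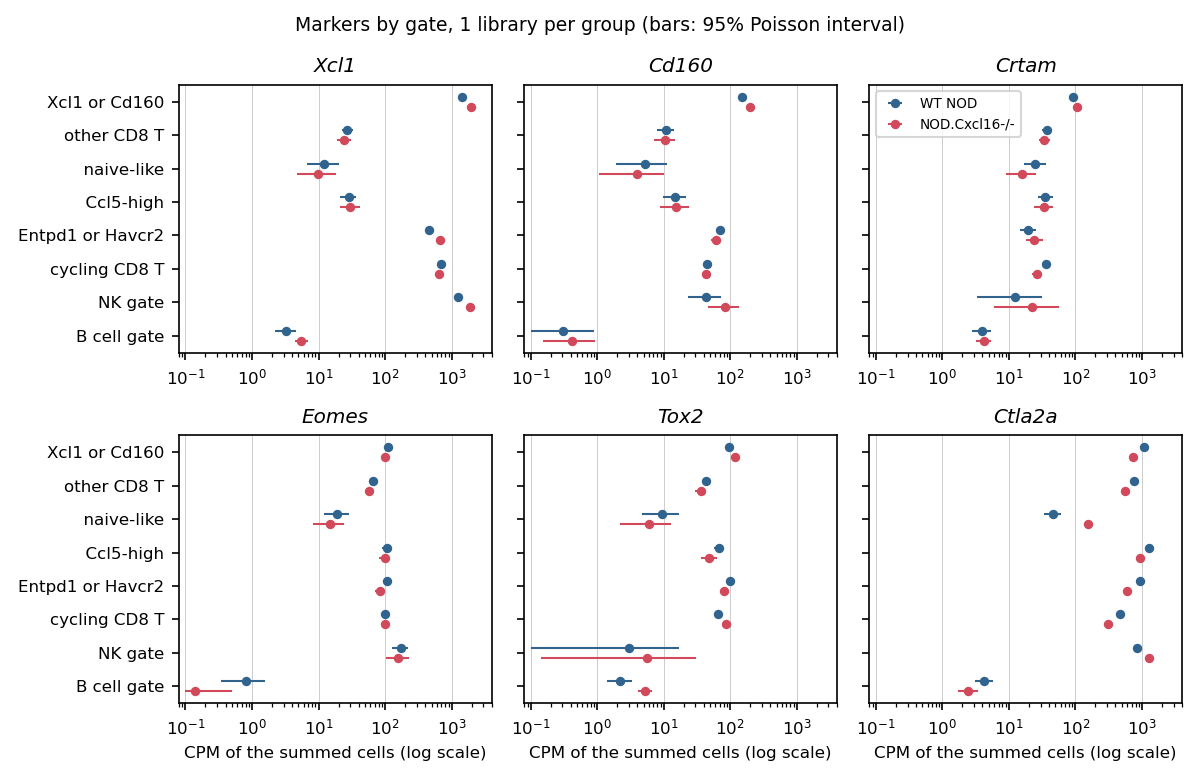
Summed CPM (log axis, cut at 0.1) of the 6 marker genes in 8 gates, with 1 point per library and bars for the 95% Poisson interval, which covers counting error only. Xcl1 and Cd160 are set by the rule, and Crtam is highest in members (91.3 and 107 CPM) while Eomes and Ctla2a reach similar or higher levels in other gates.

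Xcl1 was not held by these cells alone. Members contributed 18.5% and 23.2% of all Xcl1 UMIs of the kept cells and 21% and 28.4% of all Cd160 UMIs. Cycling CD8 T cells contributed 26.4% and 14.1% of the Xcl1 UMIs, at 684 and 647 CPM. The NK gate, which held 56 and 37 cells, carried Xcl1 at 1254 and 1876 CPM, the level of the members, and Entpd1 or Havcr2 CD8 T cells carried 458 and 665 CPM.

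Within the members, Xcl1 counts spread widely. The median cell held 5 Xcl1 UMIs in both libraries and the highest held 160 and 246, and 27.9% and 35.0% of members held 10 or more. Cd160 was sparse, with a UMI in 44% and 54.7% of members and at most 15 and 13 UMIs in a cell. Genes differed in how they stepped at the rule's threshold. By the sum of Xcl1 and Cd160 UMIs in a cell, Crtam went from 34.0 and 27.3 CPM in cells with 0 to 52.0 and 60.8 with 1, just outside, and 56.8 and 66.3 with 2, just inside. Over the same 3 steps Il7r, the interleukin-7 receptor, went from 275 and 367 CPM to 183 and 221 and then 152 and 182. From 1 to 2 UMIs, Tox2 went from 63.7 to 70.4 CPM in the WT NOD library and from 57.8 to 109 CPM in the other, and Eomes from 68.9 to 109 CPM and from 68.4 to 69.6 CPM. The cells with exactly 2 UMIs numbered 86 and 50, and those with exactly 1 numbered 166 and 110.

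An alpha-beta T-cell receptor constant gene (Trac, Trbc1 or Trbc2) was detected in 99.8% and 100% of members. The NK gate gave 78.6% and 81.1% and the B cell gate 14.4% and 10.8%, so this share alone separates members poorly from NK cells. Cd8b1, the beta chain of the CD8 coreceptor of conventional cells, was detected in 88.8% and 90.3% of members. Other CD8 T cells gave 88.3% and 92.6%, and the rule used Cd8a and Cd8b1 together, so this share follows in part from the rule. Ncr1, which encodes the NK receptor NKp46, had a UMI in 2.58% and 2.16% of members and 0.422% and 0% of other CD8 T cells, and Trdc, the delta-chain constant gene, in 5.15% and 2.70% of members and 2.75% and 1.55% of other CD8 T cells. Klrb1c was detected in 5 members (1.17%) of the WT NOD library and in 0 of 371 of the other, where 3 counts, the limit used for a count of 0, are a share of 0.809% (exact 95% interval to 0.989%). Summed over a list of 9 NK markers, members stood at 329 and 348 CPM, other CD8 T cells at 367 and 354 and the NK gate at 4740 and 6435, with Khdc1a at 0 in members of both libraries. Of the 5 with enough UMIs, Klre1 and Klra4 were higher in members than in other CD8 T cells and Txk lower (list median 0.61 and 0.41). The 7 gamma-delta T markers summed to 190 and 219 CPM in members against 126 and 103 in other CD8 T cells, with Sox13 at 0 in both. Invariant T markers summed to 107 and 79.5 CPM against 90.6 and 71.4. CD4 and regulatory T markers, with Cd4 at 0 by the rule, summed to 182 and 277 CPM against 129 and 153.

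Compared with the other CD8 T cells, members had higher summed levels of Tnfrsf9, Nrn1, Tnfsf4 and Penk and lower summed levels of Lef1, S1pr1, Il7r and Klf2. Among 8767 genes with at least 30 UMIs in each library, 115 (1.31%) were higher and 129 (1.47%) lower by 1.5-fold or more in both libraries. The genes of the rule, Xcl1 and Cd160 among them, were left out of these counts. The median over all these genes was 0.04 and 0.05 on the log2 scale. Members had more UMIs per cell than the other CD8 T cells (medians 5975 and 6108 against 4387 and 4942), and a threshold on UMIs selects deeper cells. The rule used this contrast, so the counts describe the cells and support nothing further.

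Tnfrsf9, the costimulatory receptor 4-1BB, stood at 168 and 214 CPM in members and at 37.8 and 59.3 CPM in other CD8 T cells, log2 ratios of 1.90 and 1.69. Nrn1, the GPI-anchored protein neuritin, stood at 97.9 and 162 CPM against 24.1 and 37.8 (1.66 and 1.85). Tnfsf4, the ligand OX40L, was measured at 43.7 and 65.5 CPM against 8.20 and 12.1 (1.56 and 1.77). All 3 were at least 3-fold higher by the ratio of CPM, with intervals of that ratio of 3.73 to 5.34 and 3.06 to 4.27 for Tnfrsf9. Penk, the opioid precursor proenkephalin, stood at 61.5 and 62.3 CPM against 12.8 and 16.8 (1.65 and 1.43), and Cd200, ligand of an inhibitory receptor, at 205 and 194 CPM against 86.5 and 58.7 (1.15 and 1.57). Penk and Nrn1 UMIs came from a minority of members. Those of Penk lay in 46 and 42 members, with 46.8% and 43.1% of them in 5 cells. Those of Nrn1 lay in 69 and 109 members, with 36.5% and 19.9% in 5 cells. Nrgn, which encodes the calmodulin-binding protein neurogranin, differed in size between the libraries, at 26.8 and 103 CPM against 5.24 and 7.30 (1.27 and 2.71). The MAP kinase phosphatase gene Dusp4 (1.20 and 1.28), the AP-1 family repressor gene Jdp2 (1.09 and 1.33) and the myosin gene Myo1e (1.09 and 1.09) completed the genes with the largest ratios.

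Klf2, a transcription factor of quiescent and recirculating T cells, stood at 303 and 271 CPM in members against 789 and 781 (log2 -1.35 and -1.50). Its known target S1pr1, the receptor for exit from tissue, gave -1.69 and -1.91. Lef1, a naive T-cell factor, stood at 79.7 and 60.1 CPM against 291 and 315 (-1.75 and -2.21). Igfbp4, a growth-factor binding protein of naive T cells, was at 5.29 and 5.01 CPM against 57.6 and 65.7 (-2.14 and -2.33), but among Ccl5-high cells alone it gave 0.11 in the library labelled NOD.Cxcl16-/-. The same direction held for Il7r (89.3 and 112 CPM against 259 and 337), the chemokine receptor gene Ccr2 (14.9 and 16.8 CPM against 59.2 and 54.3), the interferon-gamma receptor gene Ifngr2 (4.63 and 3.58 CPM against 31.9 and 37.8), Plac8 (-1.52 and -1.99) and Lcn4 (-1.45 and -1.26). The other CD8 T cells included 214 and 188 naive-like cells, defined by at least 2 UMIs of the same naive-cell genes and at most 1 of Ccl5.

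**Figure D2:**
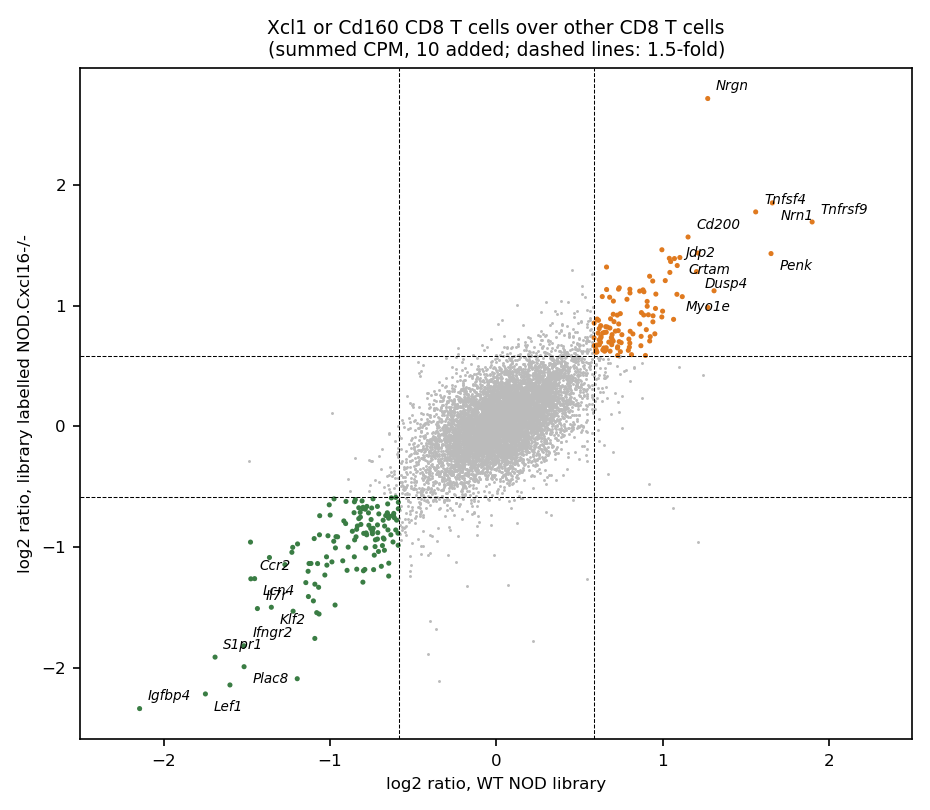
Log2 ratio of summed CPM in members over other CD8 T cells, with the WT NOD library on the x axis and the library labelled NOD.Cxcl16-/- on the y axis, 1 point per gene with enough UMIs and dashed lines at 1.5-fold. Coloured points passed in both libraries in the same direction; Xcl1 and Cd160, which the rule used, are not drawn.

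Not all genes of the stem-like and memory list were lower. Of its 15 measured members 7 were lower and none higher, among them Lef1, Il7r, Bcl2, Bach2, S1pr1 and Klf2, and the list's median was -0.51 and -0.80. Tcf7, the transcription factor TCF-1 of self-renewing T cells, stood at 255 and 253 CPM in members against 230 and 270 (0.14 and -0.09). Slamf6, a surface receptor used with it as a marker, stood at 108 and 102 CPM against 83.1 and 92.0. Neither passed the threshold. Lef1, Klf2 and Il7r were thus lower in members while Tcf7 lay within 1.5-fold of a reference that held naive-like cells.

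On the killing and effector list 4 of 14 genes were lower and none higher (median -0.32 and -0.29). Gzma, granzyme A, stood at 30.4 and 16.1 CPM against 82.7 and 101 (-1.20 and -2.09), and Gzmb, granzyme B, at 40.02 and 24 CPM against 77.2 and 73.0 (-0.80 and -1.29). Gzmm (-1.0 and -0.65) and Fasl, the death-receptor ligand (25.1 and 30.1 CPM against 51.5 and 51.4), were the other two. Ccl5, a chemokine of memory and effector CD8 T cells, was abundant in members, at 6914 and 6679 CPM against 11684 and 9338 (-0.76 and -0.48), and Ifng stood at 145 and 137 CPM against 150 and 100. These last 2 did not pass the threshold.

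Among the inhibitory receptors 4 of 11 measured genes were higher and none lower (median 0.25 and 0.46). Pdcd1, which encodes PD-1, stood at 94.9 and 129 CPM against 52.8 and 52.7 (0.74 and 1.15). Lag3 was at 165 and 150 CPM against 97.7 and 74.3, and Tigit at 53.6 and 74.8 CPM against 28.9 and 36.5, with Cd200 as the remaining gene. At a depth of 2000 UMIs, 15.9% and 21.2% of members held a Pdcd1 UMI, against 8.19% and 9.14% of other CD8 T cells, 13.6% and 16.4% of the Ccl5-high cells among them, and 20.4% and 23.5% of Entpd1 or Havcr2 cells. A UMI of both Tcf7 and Pdcd1 was found in 4.80% (2.91% to 7.39%) and 8.94% (6.19% to 12.4%) of thinned members. Other CD8 T cells gave 1.39% and 3.05%, and Entpd1 or Havcr2 cells 1.48% and 1.68%. The Ccl5-high cells among the other CD8 T cells gave 2.22% (0.961% to 4.32%) and 4.55% (2.20% to 8.20%), with intervals that overlapped those of members. At their own depth these shares were 23.9% and 30.7% of members and 4.65% and 9.66% of other CD8 T cells. Within thinned members a Pdcd1 UMI was found in 13.6% and 21.2% of cells with a Tcf7 UMI and in 17.2% and 21.3% of cells without one.

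Transcription factors of T-cell fate gave 6 higher and 2 lower of 17 (median 0.34 and 0.58), with the label's own markers Eomes and Tox2 among the higher. Tox, which sustains T cells under lasting antigen, stood at 572 and 671 CPM against 289 and 336 (0.96 and 0.98). Zeb2 (1.07 and 0.89) and the Ikaros family genes Ikzf2 (159 and 249 CPM against 74.7 and 124) and Ikzf3 (0.60 and 0.63) were higher with Tox2 and Eomes. Prdm1, which encodes BLIMP-1, a factor of terminal differentiation, was lower at 9.59 and 9.66 CPM against 24.1 and 21.3 (-0.80 and -0.67), as was Maf (-0.65 and -0.64). Tbx21, which encodes T-bet, gave 0.44 and 0.63 and did not pass. Among thinned members, Tox2 was found in 25.6% and 35.6% of cells with an Eomes UMI and in 13.5% and 17.7% of cells without.

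Genes induced by T-cell receptor signals were mixed. Of 14 measured, 4 were higher and none lower (median 0.26 and 0.29): Tnfrsf9, the nuclear receptor gene Nr4a2 (362 and 479 CPM against 186 and 197), and the signal inhibitors Spry1 (0.66 and 1.13) and Spry2 (0.80 and 1.13). Nr4a1, the immediate-early gene of the same family, stood at 47.3 and 40.1 CPM against 39.9 and 35.9 and did not pass. On the dissociation and stress list, 1 of 14 genes passed, Fosb, higher at 103 and 93.4 CPM against 59.4 and 52.7.

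On the remaining lists fewer genes passed. Costimulation and TNF family genes gave 3 higher of 13 (Tnfrsf9, Lta and Tnfsf11, which encodes RANKL, at 35.4 and 49.7 CPM against 13.9 and 25.7; median 0.34 and 0.39). NK receptors and adaptors gave 2 higher of 10 (Klre1, at 111 and 135 CPM against 66.5 and 48.2, and Slamf7, at 71.1 and 71.9 against 34.4 and 41.6). Cytokine receptors gave 3 lower of 17, Il7r, Il4ra (-0.73 and -0.99) and Ifngr1 (182 and 221 CPM against 392 and 571). Of 12 interferon-induced genes 3 were lower, Gbp2 (27.8 and 26.5 CPM against 73.6 and 79.3), Ifit3 and Rtp4, with a median of -0.56 and -0.69. Residency and positioning genes gave 1 higher, P2rx7, a purine receptor, and 1 lower, Ccr2, of 17. Cxcr6, the receptor for CXCL16, stood at 99.6 and 163 CPM in members against 193 and 224 (-0.89 and -0.44) and did not pass in both libraries.

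Since the reference held naive-like cells, Ccl5-high members were also set against the other Ccl5-high CD8 T cells, a comparison chosen after seeing the data. The Ccl5-high gate held 51.3% and 53.1% of members, and 9.84% and 6.2% met the naive-like gate. Of 6766 genes, 77 (1.14%) were higher and 54 (0.798%) lower in both libraries. Ccl5, which set the gate, was not left out of these counts. The 2 comparisons share cells, so their likeness is no separate evidence. Of the 115 genes higher above, 96 had enough UMIs here and 39 passed again, and of the 129 lower genes 92 had enough and 32 passed.

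Within Ccl5-high cells, Nrn1 stood at 59.95 and 97.5 CPM in members against 9.43 and 11.7 CPM (log2 1.85 and 2.31). Penk (85.4 and 68.1 CPM against 13.3 and 16.7), Crtam (86.9 and 110 CPM against 35.5 and 33.5), Tnfsf4 (28.5 and 38.8 CPM against 9.43 and 7.53) and Cd200 (140 and 142 CPM against 67.1 and 57.8) were again higher. So were Ppp2r3a, a phosphatase subunit gene (1.31 and 1.53), Hivep3 (1.25 and 1.32), P2rx7 (0.99 and 1.03), the noncoding RNA Kcnq1ot1 (0.92 and 1.31) and Aff3 (0.97 and 0.91). Granzyme A was the gene with the largest gap, at 21 and 17.4 CPM in Ccl5-high members against 125 and 227 CPM (-2.12 and -3.11). Ccr2, Il7r, Prdm1 (-1.26 and -1.17), Fasl (-1.08 and -1.38), Ifngr1 (-1.07 and -1.18), Epsti1 (-1.44 and -1.16) and Ifitm1 (-1.13 and -2.83) were lower too. The MHC class II genes Cd74 (-1.76 and -1.46) and H2-Eb1 (-1.61 and -1.21), which T cells of mice hardly make, were also lower. Macrophage and dendritic marker genes summed to 308 and 178 CPM in all members against 435 and 463 in other CD8 T cells, and their part in these 2 genes was not tested.

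By list, 5 of 12 killing and effector genes were lower among Ccl5-high members (Gzma, Gzmb, Gzmm, Fasl and Ccl5) and none higher. Ccl5 itself set the gate on both sides by raw UMIs, so its call is not separate from the gate. Depth also differed, with medians of 5975 and 6108 UMIs in all members and 3991 and 4671 in the other Ccl5-high cells. Of 17 fate transcription factors 4 were higher (Tox, Tox2, Zeb2 and Ikzf2) and 2 lower (Prdm1 and Maf). Of 16 residency and positioning genes 4 were lower, among them Cxcr6 (-1.17 and -1.06), Itga1 and Ccr2, and P2rx7 was higher. On the stem-like and memory list 3 of 13 were lower, Il7r, S1pr1 and Klf2, whereas Tcf7 gave 0.94 and 0.46 and did not pass. The inhibitory receptor list gave 2 higher of 10, Cd200 and Btla, and of the 4 further markers Crtam and Tox2 passed while Eomes and Ctla2a did not. Cytokine receptors gave 2 lower of 14 (Il7r and Ifngr1) and interferon-induced genes 2 lower of 9 (Isg20 and Gbp2). Nr4a2 of 10 receptor-signal genes, Fcer1g of 10 NK receptors and adaptors and Fosb of 13 stress genes were higher, and no costimulation gene of 10 passed.

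Set against the non-cycling CD8 T cells with Entpd1 or Havcr2 UMIs (359 and 243 cells), members had higher Tcf7 and Slamf6 and lower granzyme B and Cxcr6. Entpd1 and Havcr2 are part of the rule. Of 8456 genes, 76 (0.899%) were higher and 227 (2.68%) lower in both libraries, with a median over all genes of -0.05 and -0.01. The genes of the rule, Xcl1, Cd160, Entpd1 and Havcr2 among them, were left out of these counts. Tcf7 stood at 255 and 253 CPM in members against 56.0 and 73.1 (log2 2.0 and 1.66), and Slamf6 at 108 and 102 CPM against 39.2 and 44 (1.27 and 1.05). Nrn1 gave 1.88 and 2.31, and Crtam gave 1.78 and 1.77. The neuronal vesicle gene Nsg2 (50.9 and 52.3 CPM against 7.09 and 12.8), Aff3, Ppp2r3a, Tnfsf4 and Samd3 were also among the leading higher genes.

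Gzmb stood at 40.02 and 24 CPM in members against 268 and 300 CPM (-2.48 and -3.19). Cxcr6 stood at 99.6 and 163 CPM against 604 and 717 (-2.49 and -2.07), and after thinning 14.6% and 16.2% of members held a Cxcr6 UMI, against 58.3% and 67.2% of Entpd1 or Havcr2 cells. Ccr2 (14.9 and 16.8 CPM against 120 and 118) and the stress-linked factor gene Atf3 (15.2 and 12.9 CPM against 98.2 and 98.8) were lower as well. The receptor genes for CXCL16 and for CCR2 chemokines were thus both lower in members than in these cells.

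Several genes that macrophages and dendritic cells transcribe at high levels were also on the lower side. They were H2-Aa (185 and 47.2 CPM against 836 and 1659), Cst3 (208 and 186 CPM against 873 and 1907), Tyrobp (-2.14 and -2.31), Aif1 (-2.13 and -2.55), Ifitm3 (-2.31 and -3.93) and Cxcl16 itself (2.65 and 1.79 CPM against 48.5 and 51.9). The 12 macrophage and dendritic markers summed to 308 and 178 CPM in members and to 781 and 1599 CPM in Entpd1 or Havcr2 cells, where Entpd1 and Havcr2 are also genes of macrophages. Without the barcodes of high doublet score, 79 genes were higher and 154 lower, Tyrobp gave -1.32 and -1.88, and Gzmb (-2.48 and -3.55) and Cxcr6 (-2.58 and -2.17) were about as low as before. In cells of 3000 to 8000 UMIs Tyrobp, Aif1 and Cxcl16 gave 0.68, 0.54 and 0.14 in the library labelled NOD.Cxcl16-/-, so their direction depended on the depth of the cells taken. The part of mixed droplets in the myeloid genes was not tested beyond this.

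Counted by list against the Entpd1 or Havcr2 cells, 8 of 14 killing and effector genes were lower and none higher (Gzma, Gzmb, Gzmk, Prf1, Fasl, Ccl3, Ccl4 and Ccl5), with a median of -0.92 and -0.68. On the stem-like and memory list 5 of 15 were higher (Tcf7, Slamf6, Id3, Bach2 and Myb) and none lower. Of 12 inhibitory receptors 1 was higher, Cd200, and 2 lower, Cd101 and Lair1, while Pdcd1 was not called. Residency and positioning genes split, with 3 of 17 higher (Itgb1, Cd69 and P2rx7) and 4 lower, Cxcr6, Rgs1 and Ccr2 among them. Fate factors gave 1 higher, Ikzf2, and 4 lower, Id2, Prdm1, Irf8 and Maf, of 17. Receptor-signal genes gave 2 higher of 14, Spry1 and Spry2, and 1 lower, Dusp5. Tnfrsf9 was not called, and after thinning 19.9% and 22.9% of members held its UMI, against 17.8% and 23.1% of Entpd1 or Havcr2 cells. Of the remaining lists, costimulation gave 1 higher of 12 (Tnfsf11), cytokine receptors 3 lower of 17 (Il10ra, Ifngr1 and Cish), interferon-induced genes 4 lower of 11 (Isg15, Ifit1, Bst2 and Zbp1), NK receptors 1 lower of 12 (Tyrobp) and stress genes 1 lower of 14 (Atf3).

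**Figure D3:**
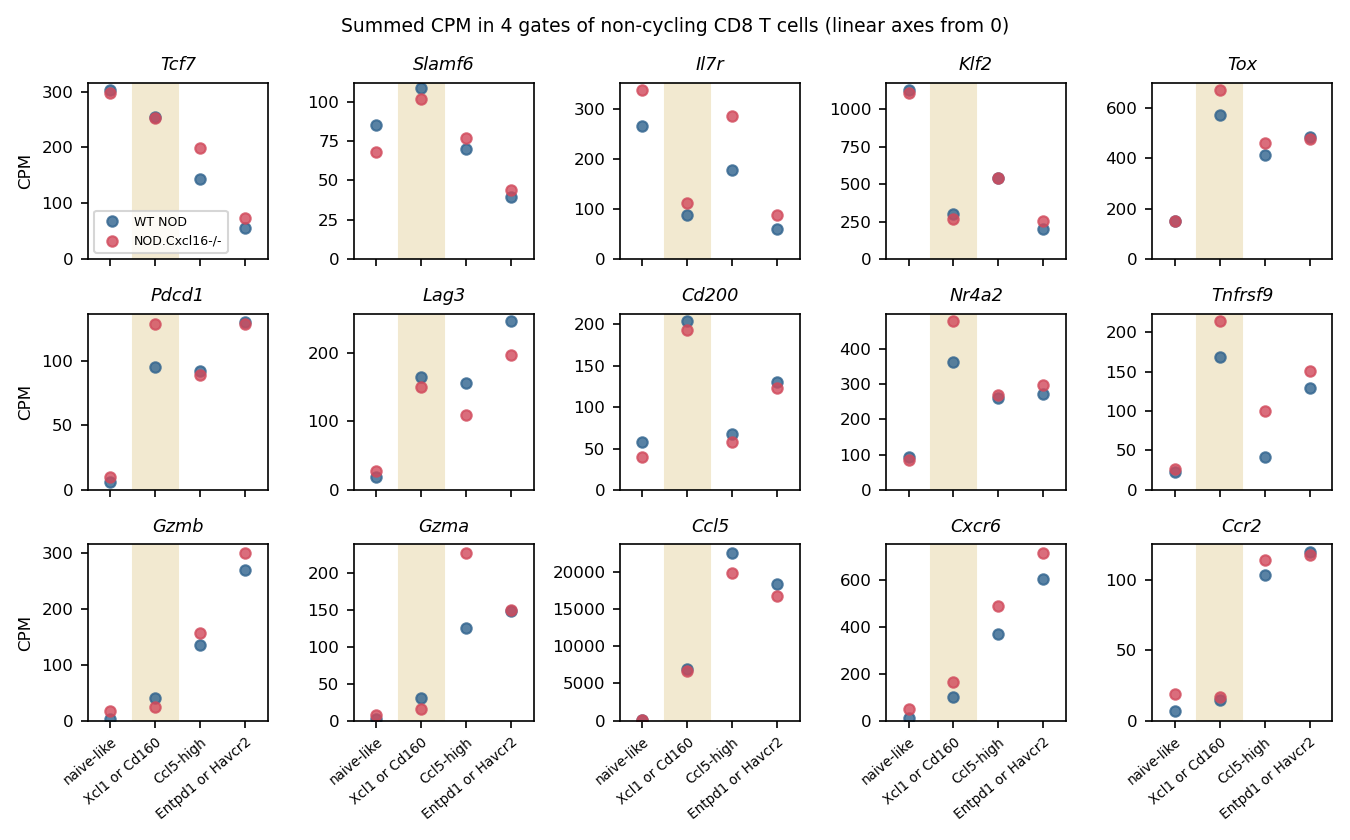
Summed CPM (linear axes from 0) of 15 genes in 4 gates of non-cycling CD8 T cells, 1 point per library, with the members shaded. Tcf7 in members (255 and 253 CPM) lies above the Entpd1 or Havcr2 gate. Tnfrsf9, Cd200 and Nr4a2 are highest in members, but only Cd200 of them passed 1.5-fold over the Entpd1 or Havcr2 gate in both libraries. Gzmb, Gzma, Cxcr6 and Ccr2 are lower in members than in both the Ccl5-high and the Entpd1 or Havcr2 gates.

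The 2 genes of the rule divided the members. Xcl1 UMIs without Cd160 were found in 239 and 168 members (56.0% and 45.3%), both genes in 165 and 192 (38.6%, interval 34.0% to 43.4%, and 51.8%, 46.5% to 56.9%), and Cd160 without Xcl1 in 23 and 11 (5.39% and 2.96%). Members with both genes had more UMIs per cell, with medians of 7041 and 7120 against 5386 and 5190 in Xcl1-only members, and a deeper cell more often shows both. The comparison of these 2 kinds was chosen after seeing the data.

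Members with both genes differed little from Xcl1-only members. Of 6913 genes, Cd160 and the other genes of the rule left out, 14 (0.203%) were higher and 3 (0.0434%) lower in both libraries. Tnfsf4 stood at 66.3 and 85.8 CPM in members with both genes against 25 and 35.8 CPM (log2 1.12 and 1.07). Fcer1g, an adaptor of activating NK and Fc receptors, stood at 76.3 and 68.9 CPM against 28.4 and 14.1, and Cd7, a surface receptor of T and NK cells, at 263 and 422 CPM against 146 and 235 (0.81 and 0.81). Nrgn stood at 44.2 and 134 CPM against 11.5 and 64.0. Ccl1, Selenop, Otud7b and Pacsin2 were the other named higher genes, but 92.1% and 97.7% of the members' Ccl1 UMIs lay in 5 cells. The lower genes were Klf2 (216 and 186 CPM against 388 and 346), Sidt1 (-0.74 and -0.73) and S1pr4 (-0.59 and -0.61). Crtam (109 and 122 CPM against 79.1 and 89.5) and Tox2 (122 and 135 CPM against 75.8 and 86.6) leaned the same way without passing the threshold. After thinning to 2000 UMIs, Fcer1g gave -0.10 and S1pr4 0.87 in the library labelled NOD.Cxcl16-/-, and Selenop -1.01 and Otud7b -0.20 in the WT NOD library, so the direction of these 4 genes did not hold at equal depth.

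Cd160-only members were too few for firm values, with 142043 and 77177 UMIs in all, at which 3 counts are worth 21.1 and 38.9 CPM. Of 4651 genes 214 (4.6%) were higher in Xcl1-only than in Cd160-only members and 111 (2.39%) lower. The 8 leading higher genes (Tbc1d4, Nup54, Rgcc, Tnfsf8, Patj, Nbas, Hist1h1b and Ramp3) had at most 3 UMIs in the Cd160-only cells of either library, so no fold is given. On the lower side, Cxcr6 stood at 92.0 and 180 CPM in Xcl1-only members and at 268 and 479 CPM in Cd160-only members, and Ccl5 at 7333 and 6955 CPM against 16551 and 15186. Jaml (-1.40 and -2.17), Fasl (-1.14 and -1.86), Arl15, Ddx17 and Cd226 were lower in the same way. For Gzmb, 39 of the 68 UMIs of Cd160-only cells in the WT NOD library lay in 1 cell, and all 9 of the other library lay in 1 cell. After thinning, Jaml, Arl15, Fasl and Cd226 turned direction in the WT NOD library (3.39, 2.34, 1.89 and 2.24).

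T-cell receptor beta variable genes were read in 156 and 128 members. The most frequent were Trbv12-2, in 25 and 25 of them (16.0% and 19.5%), Trbv19, in 24 and 15, and Trbv16 in the WT NOD library (23 cells) or Trbv3 in the other (18 cells). Trbv12-2 was also the most frequent in other CD8 T cells (22.1% and 22.7%), and Trbv3 was read in 35.3% of the Entpd1 or Havcr2 cells of the library labelled NOD.Cxcl16-/- that had a Trbv UMI, against 14.1% of members. At a depth of 2000 UMIs a Trbv UMI was found in 15.7% and 13.4% of members and 9.82% and 10.0% of other CD8 T cells. More than 1 Trbv gene was read in 20 and 15 members, and 3' reads cover this gene segment only partly.

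Between the libraries, members made up a larger part of the CD8 T cells in the library labelled NOD.Cxcl16-/-. They were 19.4% (17.8% to 21.1%) of 2203 CD8 T cells in the WT NOD library and 25.6% (23.4% to 27.9%) of 1449 in the other, a difference of 6.22 percentage points (3.45 to 9.03). Of the non-cycling CD8 T cells without Entpd1 or Havcr2 they were 31.1% and 39.0%. Cells of the second library were deeper. All cells were therefore thinned to 2000 UMIs, with 212 and 41 shallower CD8 T cells left out, and the rule was applied again to the thinned counts. This left 214 members of 1240 CD8 T cells in the WT NOD library and 204 of 929 in the other. The shares were then 17.3% and 22.0%, a difference of 4.70 points (1.34 to 8.12). Of all kept cells, members were 3.49% and 3.63%, a difference of 0.147 points (-0.338 to 0.638). The interval of the difference thus lay above 0 among CD8 T cells and included 0 among all kept leukocytes. The kept cells of the WT NOD library held 470 cycling CD8 T cells and those of the other library 255. With 1 library per group, genotype and library cannot be told apart.

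None of the markers Crtam, Eomes, Tox2 and Ctla2a passed 1.5-fold between the libraries. Ctla2a had intervals that did not overlap, at 1074 CPM (1037 to 1112) and 733 CPM (701 to 765), and a UMI in 62.1% and 42.7% of thinned members. The same direction was seen in other CD8 T cells (771 and 562 CPM), Ccl5-high cells (1297 and 932), Entpd1 or Havcr2 cells (929 and 602) and cycling CD8 T cells (472 and 305). It was the opposite in naive-like cells (45.7 and 156 CPM) and the NK gate (835 and 1297 CPM). Xcl1, which the rule used, stood at 1456 and 1983 CPM, and Tcf7 stood at 255 and 253 CPM. Of 8850 genes 89 (1.01%) were higher and 80 (0.904%) lower by 1.5-fold or more in the library labelled NOD.Cxcl16-/-, with 1 library on each side. Under median-of-ratios scaling the split was 60 higher and 100 lower, and without the barcodes of high doublet score 110 higher and 56 lower. Nrgn was the largest higher gene, from 26.8 to 103 CPM (log2 1.62, interval of the CPM ratio 3.01 to 5.00). It gave 0.18 in other CD8 T cells and was also higher in Entpd1 or Havcr2 cells (0.99). Its UMIs lay in 32 and 56 members, with 60.5% and 46.4% of them in 5 cells. Atp2b2, a calcium pump gene (3.97 and 23.6 CPM), Grik4 (1.32 and 16.8 CPM), Elmod1 (4.96 and 22.9 CPM), Myo3b (12.9 and 39.7 CPM) and Ddx43 (13.6 and 40.8 CPM) followed. In other CD8 T cells Ddx43 gave 0.73 and Myo3b 0.29, and Atp2b2, Grik4 and Elmod1 had too few UMIs to be called. A difference between the cell groups was not tested.

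Insulin transcripts, which T cells do not make, were among the higher genes. Ins2 went from 19.8 to 73.0 CPM in members (1.48, against 1.23 in other CD8 T cells) and Ins1 from 11.6 to 44.4 CPM (1.33, against 1.04). A UMI of either was found in 7.49% and 44.2% of members and in 7.18% and 38.1% of other CD8 T cells. Members and other CD8 T cells both showed this difference, and its size was not tested between them. In Entpd1 or Havcr2 cells the summed CPM went the opposite way, with Ins2 at 114 and 83.5 CPM (-0.41) and Ins1 at 66.1 and 45.9 CPM (-0.44). The share of these cells with a UMI of either still rose, from 12.3% to 40.3% (5.92% and 16.4% after thinning). In the B cell gate that share was 5.72% and 33.6%. All 4 islet markers with enough UMIs were higher (Ins1, Ins2, Gcg and Iapp).

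MHC class II genes led the lower side. H2-Eb1 stood at 167 and 33.6 CPM (-2.02), H2-Aa at 185 and 47.2 CPM (-1.77), H2-Ab1 at 155 and 39.4 CPM (-1.74) and Cd74 at 470 and 141 CPM (-1.67). In Entpd1 or Havcr2 cells the same genes were higher in the library labelled NOD.Cxcl16-/-, with 1.08, 0.98, 1.12 and 0.73. These transcripts were concentrated, with 57.8% of the members' H2-Aa UMIs of the WT NOD library in 5 cells. High doublet scores marked 31 members (7.26%) of that library and 6 (1.62%) of the other, and without them the 4 genes gave -0.85, -0.68, -0.73 and -0.66. B and plasma cell markers summed to 402 and 115 CPM in members and macrophage and dendritic markers to 308 and 178 CPM. Tmem176a (-1.37) gave -0.70 without the barcodes of high doublet score, and Ms4a4c (58.9 and 15.03 CPM, -1.46) gave -1.36. The part of such barcodes in each value was not tested further.

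Ube2c and Hist1h2ap, genes of dividing cells, were also lower, although the rule limits Mki67 and Top2a. Ube2c, a ubiquitin-conjugating enzyme of mitotic exit, went from 37.0 to 7.16 CPM (-1.46, against -1.25 in other CD8 T cells) and the histone gene Hist1h2ap from 32.1 to 5.37 CPM (-1.45, against -0.97). Of the interferon-induced genes 4 of 12 were lower, Isg15 (35.7 and 16.8 CPM), Ifit1, Ifit3 (20.8 and 3.94 CPM) and Ifi27l2a (1702 and 1022 CPM), and none higher, with a list median of -0.46 beside 0.04 for all genes. Residency and positioning genes gave 3 higher of 17, Cxcr6 (99.6 and 163 CPM, 0.66), Ahr and Rgs2, and none lower. Of the other lists, killing and effector genes gave 2 lower of 13 (Gzma and Ccl3), costimulation 2 higher of 14 (Tnfrsf4, 96.6 and 185 CPM, and Tnfsf8, 32.1 and 74.4 CPM), fate factors 1 higher of 17 (Ikzf2) and inhibitory receptors 1 higher of 11 (Cd200r1). NK receptors gave 1 higher (Cd7) and 1 lower (Klra7) of 12, and no receptor-signal, cytokine receptor or stress gene passed.

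**Figure D4:**
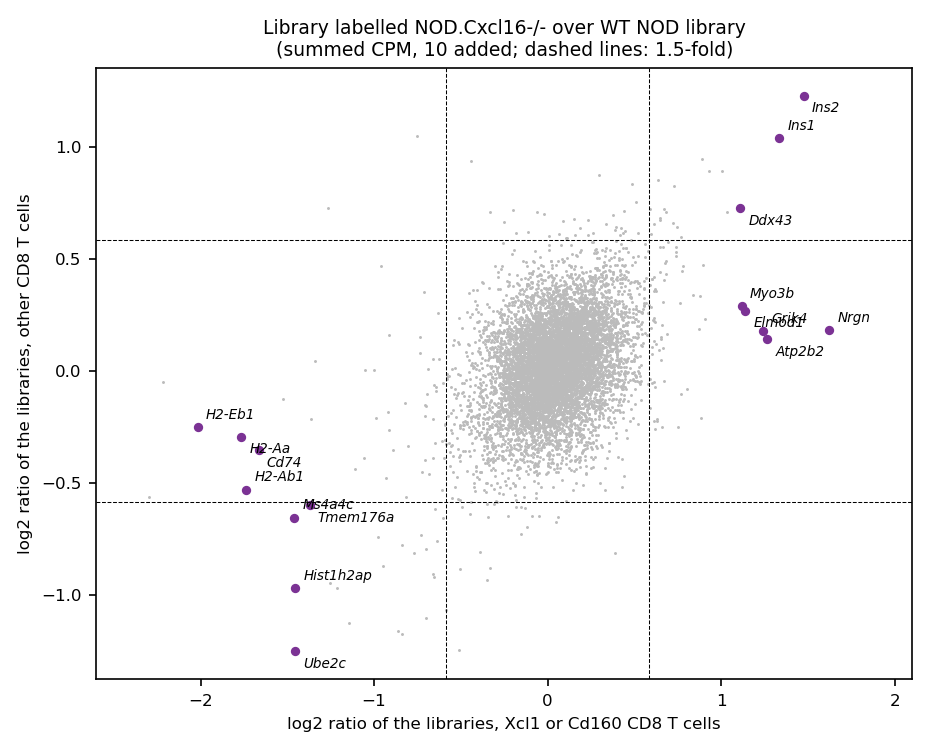
Log2 ratio between libraries, labelled NOD.Cxcl16-/- over WT NOD, in members (x axis) and in other CD8 T cells (y axis), 1 point per gene, with dashed lines at 1.5-fold and the 16 named genes in purple. Ins1 and Ins2 were higher and Ube2c lower in both cell groups, while Nrgn (1.62 against 0.18) and H2-Eb1 (-2.02 against -0.25) had larger ratios in members; each axis compares 1 library with 1 library.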

How the data were processed

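Gene expression of single islet leukocytes was measured in 1 WT NOD library and 1 library labelled NOD.Cxcl16-/-. The deposited values are raw UMI counts per gene and barcode, whole numbers with no normalization, made with Cell Ranger 7.0.1 on mm10, per the submitters' processing notes. Gene models were not given in the sources used here, and 32158 of the 32285 gene IDs occur in GENCODE M21 (GRCm38), the source of the gene coordinates. Members and gene lists were chosen with earlier results of these data known.

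Barcodes with fewer than 500 genes (1582 and 311) or, of the rest, over 10% mitochondrial UMIs (25 and 29) were dropped. No doublets were removed, and a score after the scheme of Scrublet (the highest 0.8% per 1000 barcodes) was used only as an alternative. Cells were not clustered. UMIs were summed per gate and library and scaled to CPM. A gene was called at 1.5-fold or more with 10 CPM added and at least 30 UMIs over both sums, in both libraries for comparisons of cells. CPM carry exact Poisson intervals, shares Clopper-Pearson, differences of shares Newcombe, and ratios conditional binomial intervals, those of ratios without added CPM. Named genes are the markers, the 10 (8 between libraries and by rule gene) largest called ratios in each direction, leaving out gate, receptor-segment, ribosomal, mitochondrial and unnamed models, and the called or highest genes of each list. The scripts were tested on simulated data. Python 3.11.15, numpy 2.4.6, scipy 1.17.1, pandas 2.3.3, scikit-learn 1.9.0 and matplotlib 3.10.9 were used. Values of a few single genes are not reported here.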

Additional observations from a re-analysis of the deposited data

Results flagged for a closer look

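Jchain, which encodes the joining chain of secreted antibodies, was higher in members than in other CD8 T cells in the WT NOD library (log2 ratio 1.06, 133 against 58.3 CPM) and lower in the library labelled NOD.Cxcl16-/- (-0.67, 19.0 against 36.2 CPM). It stood out because the 2 libraries moved in opposite directions. Of the 401 Jchain UMIs of members in the WT NOD library, 186 lay in 1 cell and 91.0% in 5 cells. The difference between the libraries was not tested.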

How the results depend on the processing

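No paired analysis was possible because each group has 1 library. Under 16 alternatives (14 planned and 2 chosen after seeing the data) 2040 ratios of named genes were computed again and 2022 had the same direction. Named genes were chosen for large ratios in these counts, so a kept direction is a weak check. Some ratios kept their direction but left the interval of the main ratio. They were 302 of 640 against other CD8 T cells, 257 of 560 against Entpd1 or Havcr2 cells and 136 of 224 between the libraries. Between kinds of members they were 13 of 352 (Xcl1-only, Cd160-only) and 29 of 264 (both genes, Xcl1-only). That interval is without added CPM and can miss the main ratio itself. The share of CD8 T cells was 15.5% and 22.2% with at least 3 UMIs of Xcl1 and Cd160, 26.9% and 33.2% with at least 1, and 17.3% and 22.0% after thinning to 2000 UMIs. With 1 CPM added instead of 10, 282 genes were higher and 247 lower against other CD8 T cells, 177 and 375 against Entpd1 or Havcr2 cells, 413 and 323 between the libraries, and 62 and 20 between members with both genes and Xcl1-only members. After thinning, 85 genes were lower against Entpd1 or Havcr2 cells, 237 were higher and 181 lower between the libraries, and 16 were lower in members with both genes. In cells of 3000 to 8000 UMIs these counts were 118 higher and 151 lower, 247 and 121, and 39 and 8, and 70 genes were lower in Xcl1-only than in Cd160-only members. The mean of each cell's CPM gave 210 and 144 genes between the libraries and 26 and 9 for members with both genes. With no minimum of UMIs, 678 and 271 genes were called between Xcl1-only and Cd160-only members and 22 and 5 for members with both genes, for which 6 were lower without high doublet scores and 8 without cells holding Ncr1, Klrb1c, Trdc or Zbtb16. Among Ccl5-high cells alone 54 genes were lower against other CD8 T cells.

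Directions turned in 18 of the recomputed ratios. Without high doublet scores Gzmb gave 2.11 between Xcl1-only and Cd160-only members of the library labelled NOD.Cxcl16-/-, and 2.60 in cells of 3000 to 8000 UMIs. After thinning, Tyrobp gave 0.52 (WT NOD) and Aif1 0.24 against Entpd1 or Havcr2 cells, Jaml 3.39, Arl15 2.34 and 3.01, Fasl 1.89 and Cd226 2.24 between Xcl1-only and Cd160-only members, and Fcer1g -0.10, Selenop -1.01, Otud7b -0.20 and S1pr4 0.87 in members with both genes. In cells of 3000 to 8000 UMIs Cxcl16 gave 0.14, Tyrobp 0.68 and Aif1 0.54 against Entpd1 or Havcr2 cells, and Ccl1 -0.23 in members with both genes. Among Ccl5-high cells Igfbp4 gave 0.11. The causes were not tested. No named ratio between the libraries turned direction under any alternative run. These genes were chosen for the largest ratios, and 136 of the 224 recomputed values left the interval of the main ratio. The number of Cd160-only members, 23 and 11, limits the precision of their values.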
